A study of Homo sapiens with 15 samples.

Results

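The 46 genes described here build and start the DNA replication machinery or drive cells past the step between G1 and S phase, and they were listed by gene symbol, with earlier results of these arrays known. All 46 had a probe set that carries their symbol alone, out of 19775 genes with such a probe set on the array, and all 46 were among the 16358 genes that passed the filter on low signals. RNA came from A549, an epithelial cell line grown out of a human lung adenocarcinoma, and was read on 15 Affymetrix arrays, 3 for each of 5 groups, in a study of polyamides and the glucocorticoid response. In 3 groups, dexamethasone for 6 hours was combined with 48 hours of a compound, which was the match polyamide, the mismatch polyamide or mifepristone. The remaining groups received dexamethasone alone for 6 hours or were non-treated. Dexamethasone activates the glucocorticoid receptor and mifepristone blocks it, whereas polyamides are synthetic molecules that sit in the minor groove of DNA, and the study's polyamide was aimed at the glucocorticoid response element, where the receptor contacts DNA. All cells grew in F12K medium with 10% charcoal-treated serum, which is depleted of steroids. The sources used here give no doses, vehicles or polyamide structures. Since the labels name no separate cultures for the 3 arrays of a group, p-values measure the spread between arrays, which may be technical.

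Replication starts in G1, when the origin recognition complex, CDC6 and CDT1 load the MCM helicase ring onto DNA, a step called licensing that geminin (GMNN) blocks once S phase has begun. The kinase CDC7 with its partner DBF4, and the cyclin-dependent kinases, then let CDC45 and the GINS complex join the ring and open the fork, where polymerase alpha with primase (POLA1, POLA2, PRIM1 and PRIM2) lays primers that polymerases delta and epsilon extend on the sliding clamp PCNA. Many of these genes are targets of the E2F transcription factors, which cyclin D and cyclin E complexes release from the retinoblastoma protein, and in cancer lines such as A549 they are transcribed at high levels because the cells divide rapidly.

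Across the 15 arrays the median deposited signal ran from 14.8 to 24.5, so arrays were quantile normalized, and the number of arrays limits the precision. The epithelial markers KRT8 and KRT18 had normalized signals of 4128 to 7124 and 8251 to 9713, and KRT7 of 3132 to 6517. The other epithelial markers were dimmer, KRT19 at 608 to 1049, EPCAM at 152 to 724 and CDH1 at 122 to 403. The leukocyte markers PTPRC, CD3E, CD14 and LYZ stayed at or under 31.3, and the red cell gene HBB at or under 43.8. Among 6 fibroblast markers COL1A1 reached 251 and the others at most 31.7. The GAPDH 3'/5' signal ratio lay between 0.914 and 1.07 on all arrays. The ACTB ratio was 1.32 to 1.72 with match, 1.41 to 1.99 with mismatch and 1.32 to 1.43 with mifepristone. With dexamethasone alone it was 1.32 to 1.41 and in non-treated arrays 1.36 to 1.57, and its part in the results was not tested. In bulk RNA, a smaller share of cells in S phase and less RNA of a gene per cell cannot be told apart.

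With match polyamide plus dexamethasone, the primer-making genes PRIM2 (log2 change -1.84 ± 0.14) and POLA1 (-1.48 ± 0.11) and the GINS subunit gene GINS1 (-0.74 ± 0.086) fell furthest among the 46 against dexamethasone alone. The licensing factor CDT1 (0.91 ± 0.15), the kinase activator DBF4 (0.63 ± 0.10), the origin recognition subunit ORC6, cyclin E1 (CCNE1) and CDC6 rose most. In all, 19 of the 46 rose, 8 fell and 19 did not pass the test, which was a limma adjusted p under 0.05 over all 39744 probe sets tested. That is 41.3% of members higher and 17.4% lower, beside 15.9% of all probe sets called higher and 14.9% called lower. Taken as 1 probe set per gene, 21.5% of the 16358 genes were higher and 17.4% lower, so the share of members that fell was that of genes at large. The median standard error of the log2 change was 0.088 for members and 0.15 for all genes, so smaller changes passed the test for members. The median log2 change was 0.11 over the members and 0.054 over all genes, and members ran from -1.84 to 0.91. Here and below, levels are quantile-normalized signals and changes are differences of log2(signal + 16) ± SE, which makes changes of dim genes look smaller than they are. The counts depended on how arrays were scaled, with 8 members called (5 higher, 3 lower) on the signals as deposited, 16 (9 higher, 7 lower) after median centring and 21 (18 higher, 3 lower) after scaling on the hybridization spike-ins. Over all probe sets, 10.7% were higher and 9.33% lower on the signals as deposited, and 10.6% and 14.98% after median centring. Scaling on the spike-ins gave 20.7% higher and 6.71% lower, so the shares of all probe sets moved with the scaling too. Leaving out single arrays gave 20 to 28 calls.

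With mismatch polyamide plus dexamethasone, CDC6 (0.52 ± 0.068), DBF4 (0.51 ± 0.10), cyclin D1 (CCND1), ORC6 and CCNE1 rose most among the 46 and POLA1 (-1.07 ± 0.11) and PRIM2 (-0.73 ± 0.14) fell furthest, against the same dexamethasone arrays. Here 16 members rose, 4 fell and 26 did not pass the test, or 34.8% higher and 8.70% lower, beside 12% of all probe sets called higher and 10.9% called lower. By 1 probe set per gene, as for the members, 17.9% of genes were higher and 11.8% lower. The median log2 change was 0.18 over the members and 0.071 over all genes, with members between -1.07 and 0.52. The same 3 dexamethasone arrays serve both polyamide comparisons, so their counts are not independent of each other. The split changed to 16 higher and 2 lower on the signals as deposited, to 18 higher and 2 lower after median centring, and to 5 higher and 2 lower with spike-in scaling, and 13 members were called without a variance trend in the fit.

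Set directly against each other, the polyamides differed for 14 members: CDT1 and cyclin E2 (CCNE2) were higher with match than with mismatch, and 12 others were lower, PRIM2 by the most. That is 4.35% of members higher and 26.1% lower with match, beside 7.47% of all probe sets called higher and 9.38% called lower. By 1 probe set per gene, 9.43% of genes were higher and 13.5% lower. The direct difference uses no dexamethasone arrays beyond their share in the estimate of spread. Its median was -0.070 over the members and -0.020 over all genes. Scaling moved it: 8 members were called on the signals as deposited and 17 after median centring, all of them lower with match, while spike-in scaling left 2 calls, 1 higher and 1 lower, with a member median of 0.074. Of all probe sets, 1.40% were higher and 6.39% lower as deposited, 2.96% and 11.9% after median centring, and 5.37% and 1.79% with spike-in scaling. The heat map of all members by array shows these patterns at once.

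**Figure D1:**
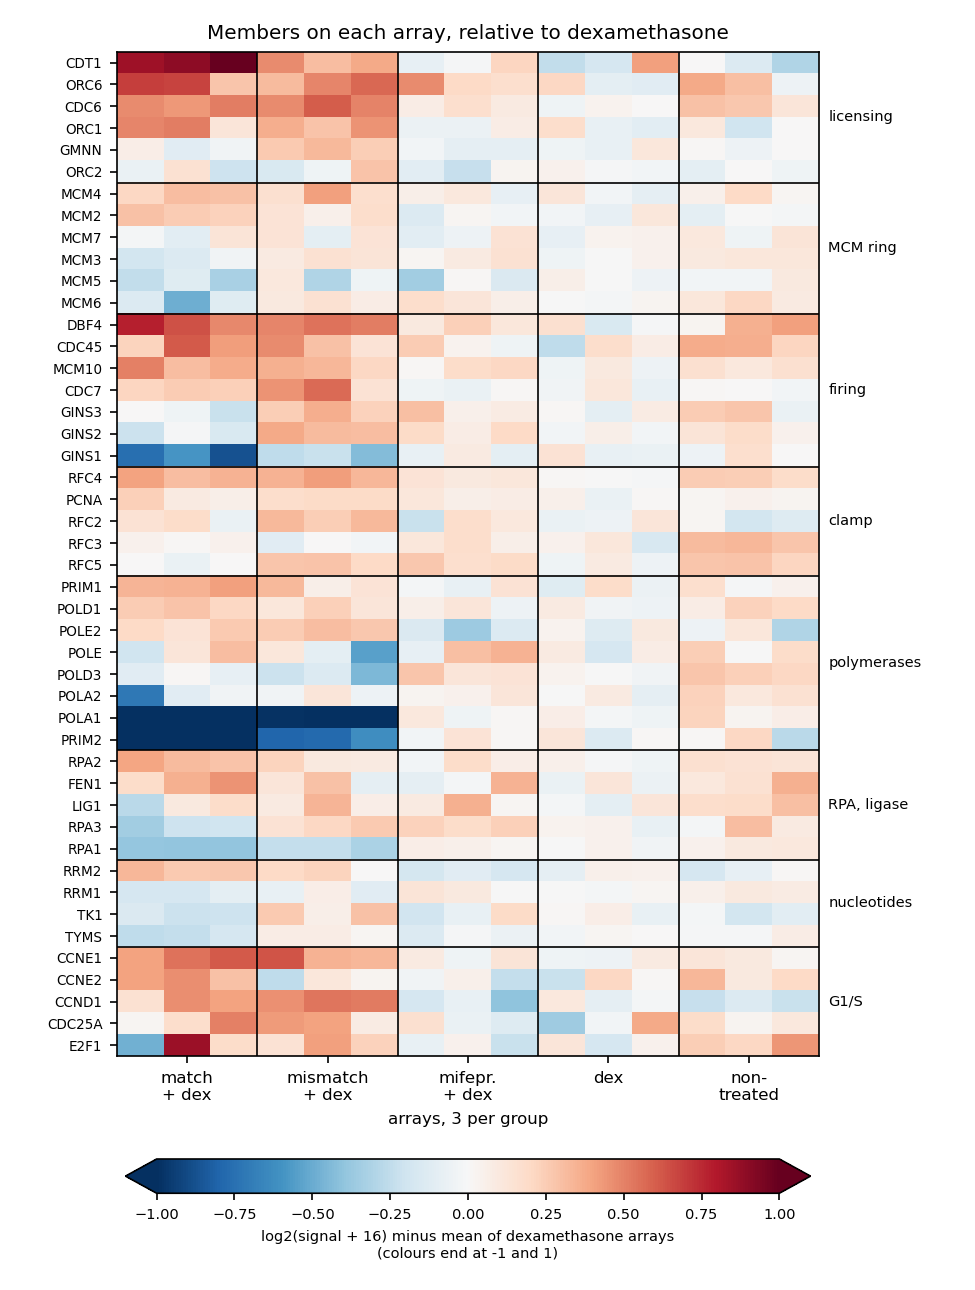
Each row is 1 of the 46 members, grouped by role, and each column 1 of the 15 arrays, with match, mismatch and mifepristone arrays (all with dexamethasone) left of the dexamethasone and non-treated arrays. Colour gives log2(signal + 16) minus the mean of the 3 dexamethasone arrays, with colours ending at -1 and 1: POLA1 and PRIM2 are dark blue with both polyamides, CDT1 dark red with match, and most other cells lie near 0.

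Promoter sequences were available for 39 of the 46 members in RefSeq (GRCh38.p14), as the 250 bases before to 50 after each annotated start. Motifs were searched only in the 250 bases before the start, called the window here. The E2F core TTTNNCGC, on either strand, occurred for 18 of these 39 (46.2%), beside 10.0% of the 12931 tested genes in the table. The CCAAT box, also on either strand, occurred for 23 members (59.0%) and 40.3% of tested genes, and the CHR element TTTGAA, common in promoters of late cell cycle genes, for 1 member, RRM1 (2.56%), and 13% of tested genes. AGAACA, 1 arm of the glucocorticoid response element, lay in the windows of 4 members (PCNA, POLD1, FEN1 and GMNN; 10.3%) and of 11.9% of tested genes. The median log2 change with match polyamide was 0.019 for the 18 members with an E2F core in the window and 0.26 for the 21 without. A match is a run of letters and not a site shown to be bound. The 250 bases before the start are printed for 5 members on which the results turn, in lower case with E2F cores and CCAAT boxes of either strand in capitals: POLA1 and PRIM1, subunits of the same complex that moved in opposite directions with match; CDC6 and CDT1, licensing factors that rose with match; and GINS1, which fell. POLA1 is at chrX:24693668-24693917 (plus strand), PRIM1 at chr12:56752324-56752573 (minus strand), CDC6 at chr17:40287629-40287878 (plus strand), CDT1 at chr16:88803539-88803788 (plus strand) and GINS1 at chr20:25407423-25407672 (plus strand).
POLA1: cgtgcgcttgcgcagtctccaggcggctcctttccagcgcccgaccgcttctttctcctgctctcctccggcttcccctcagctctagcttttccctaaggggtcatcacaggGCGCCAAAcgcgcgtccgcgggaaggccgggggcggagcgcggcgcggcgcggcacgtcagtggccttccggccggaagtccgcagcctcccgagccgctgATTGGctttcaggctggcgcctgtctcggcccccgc
PRIM1: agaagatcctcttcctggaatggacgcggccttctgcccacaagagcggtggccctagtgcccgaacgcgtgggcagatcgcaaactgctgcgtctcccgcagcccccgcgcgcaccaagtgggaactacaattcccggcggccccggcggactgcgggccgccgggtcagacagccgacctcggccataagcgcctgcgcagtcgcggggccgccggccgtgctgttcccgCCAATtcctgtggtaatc
CDC6: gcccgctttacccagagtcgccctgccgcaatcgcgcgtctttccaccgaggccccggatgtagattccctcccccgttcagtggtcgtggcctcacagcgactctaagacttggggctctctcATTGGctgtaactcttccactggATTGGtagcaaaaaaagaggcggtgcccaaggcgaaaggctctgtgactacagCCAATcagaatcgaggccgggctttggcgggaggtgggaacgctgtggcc
CDT1: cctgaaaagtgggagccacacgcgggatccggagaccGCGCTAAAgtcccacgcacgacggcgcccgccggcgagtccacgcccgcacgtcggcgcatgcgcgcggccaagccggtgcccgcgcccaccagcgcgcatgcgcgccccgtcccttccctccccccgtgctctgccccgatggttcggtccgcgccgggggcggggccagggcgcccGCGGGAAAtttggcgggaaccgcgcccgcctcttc
GINS1: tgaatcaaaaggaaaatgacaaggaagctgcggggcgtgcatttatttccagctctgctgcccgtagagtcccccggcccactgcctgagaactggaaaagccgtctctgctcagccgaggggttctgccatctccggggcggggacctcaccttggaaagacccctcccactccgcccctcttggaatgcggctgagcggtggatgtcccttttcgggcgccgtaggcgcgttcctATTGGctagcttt

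CDT1 holds 2 E2F cores and no CCAAT box, CDC6 holds 3 CCAAT boxes and no E2F core in this pattern, and POLA1 holds 1 of each. PRIM1 and GINS1 each hold 1 CCAAT box close to the start and no E2F core.

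Among the 6 licensing genes, 4 rose with match polyamide (CDT1, ORC6, CDC6 and ORC1) and 4 with mismatch (CDC6, ORC6, ORC1 and GMNN), and none fell with either. CDT1, which delivers the MCM ring to origins, had signals of 197, 204 and 219.9 on the match arrays and 148, 130.5 and 138 on the mismatch arrays, against 83.6, 89.4 and 141 with dexamethasone alone. Mifepristone arrays read 95.7, 101 and 121 and non-treated arrays 102, 91.3 and 80.0. All match arrays lay above all others, and the mismatch arrays overlapped 1 high dexamethasone array. The log2 change was 0.91 ± 0.15 with match (limma adjusted p = 4.96e-05), 0.39 ± 0.15 with mismatch (adjusted p = 0.0644) and 0.53 ± 0.15 between the polyamides (adjusted p = 0.016). A second CDT1 probe set, of the kind that can cross-hybridize, gave 1.22 with match, 1.14 with mismatch and a difference of 0.082 between them (adjusted p = 0.708), so the rise was seen by both probe sets and the difference between polyamides by 1 of them. Without match replicate 3 or mismatch replicate 2, on the signals as deposited or after median centring, that difference no longer passed the test.

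CDC6, the ATPase that works with CDT1 in loading, read 722, 702 and 743 with match and 720.2, 791 and 735 with mismatch, against 501, 529 and 516 with dexamethasone. Every polyamide array was above every dexamethasone array, and the polyamides overlapped each other. CDC6 rose by 0.48 ± 0.068 with match and 0.52 ± 0.068 with mismatch, and the difference of -0.049 had a 95% interval of -0.19 to 0.093. ORC6, the smallest subunit of the origin recognition complex, had 842, 833 and 627 with match and 642, 726 and 771 with mismatch, against 596, 479.5 and 475 with dexamethasone, and rose by 0.55 ± 0.13 and 0.46 ± 0.13 in these comparisons. ORC1, the ATPase subunit that comes and goes with the cell cycle, rose by 0.37 and 0.37, although its match arrays overlapped the dexamethasone arrays. Geminin (GMNN), the inhibitor of CDT1, changed by -0.028 with match and rose by 0.28 with mismatch (limma adjusted p = 0.00183), and was lower with match than with mismatch, at a difference of -0.31 ± 0.061. ORC2 was at -0.042 and 0.030 with match and mismatch and passed no test, whereas a second, dimmer ORC2 probe set was called higher with mismatch (0.49, adjusted p = 0.00966) and lower with match than with mismatch (-0.54, adjusted p = 0.00585).

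The 6 subunits of the MCM helicase ring, which assemble in equal numbers, did not move together with match polyamide. MCM4 and MCM2 rose by 0.27 ± 0.079 and 0.26 ± 0.067, MCM6 fell by 0.25 (limma adjusted p = 0.0118), and MCM7, MCM3 and MCM5 changed by -0.00043, -0.12 and -0.23 without passing the test. MCM6 read 1946, 1521 and 1969 with match and 2297, 2379 and 2256 with mismatch, against 2139.8, 2114 and 2181 with dexamethasone. The match arrays were the lowest of the 3 groups with no overlap, and match replicate 2 was the lowest of all. Without it the fall no longer passed the test. MCM2 had 1058, 1028 and 1009 with match, against 840.4, 809 and 932 with dexamethasone, and the groups did not overlap. On the match arrays MCM4 read 1077, 1156 and 1143. With mismatch, MCM4 alone rose (0.25 ± 0.079), with 1038, 1242 and 1047 against 1011, 911 and 871 in dexamethasone arrays, and the other 5 subunits lay between -0.077 and 0.12. Between the polyamides, MCM6 (-0.36 ± 0.073) and MCM3 (-0.24 ± 0.061) were lower with match, and the other 4 did not pass the test. The MCM6 difference passed under all 27 alternatives except spike-in scaling.

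Of the 7 genes for origin firing and assembly of the active helicase, 3 rose with match (DBF4, CDC45 and MCM10) and GINS1 fell, while 4 rose with mismatch (DBF4, CDC7, GINS2 and MCM10) and GINS1 again fell. GINS1, a subunit of the GINS complex that joins MCM and CDC45 in the moving helicase, read 746, 835 and 686 with match and 1060.2, 1086 and 933 with mismatch, against 1400.2, 1202 and 1209.7 with dexamethasone. With mifepristone it read 1201, 1347 and 1183, and non-treated arrays read 1225, 1426 and 1268. The groups were stepped, with every match array below every mismatch array and every mismatch array below the 9 arrays without polyamide. The log2 change was -0.74 ± 0.086 with match (limma adjusted p = 9.23e-07), -0.30 ± 0.086 with mismatch (adjusted p = 0.0132) and -0.44 ± 0.086 between them (adjusted p = 0.00116). GINS2, its partner in the same complex, had 585, 674 and 613 with match and 889, 854 and 848 with mismatch, against 667, 709.6 and 667 with dexamethasone. Against dexamethasone it rose by 0.34 ± 0.068 with mismatch and was at -0.13 ± 0.068 with match, and it was lower with match than with mismatch, at a difference of -0.46 ± 0.068, with no overlap of those arrays. GINS3 was also lower with match than with mismatch, at -0.37 ± 0.11, but this call was lost under 5 of 27 alternatives, and its second probe set gave -0.17 and did not pass (adjusted p = 0.296). With all probe sets of a gene averaged, the GINS2 difference was -0.027 and did not pass either. The other GINS2 probe sets in that average are dim, with mean signals of 31.2 and 19.2 against 734 for the one that represents GINS2. DBF4, the activator of CDC7, read 1055, 952 and 853 with match and 857, 893 and 871 with mismatch, against 682, 546 and 601 with dexamethasone. DBF4 rose by 0.63 ± 0.10 and 0.51 ± 0.10, and CDC7 changed by 0.24 ± 0.10 with match (adjusted p = 0.0878) and rose by 0.39 ± 0.10 with mismatch. CDC45 and MCM10, which help the helicase start, rose by 0.42 and 0.39 with match.

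PCNA, the sliding clamp, and 4 subunits of the RFC clamp loader were tested against dexamethasone, and 2 of the 5 genes rose with match and 4 of the 5 with mismatch, with none lower. RFC4 read 1041, 975 and 1006 with match and 1006, 1057 and 993 with mismatch, against 794, 783 and 779 with dexamethasone, with no overlap, and rose by 0.35 ± 0.056 and 0.37 ± 0.056. PCNA had 5037, 4548 and 4460.0 with match and 4826, 4876 and 4886 with mismatch, against 4429, 4091 and 4312 with dexamethasone. The PCNA changes were small, 0.13 ± 0.046 with match (limma adjusted p = 0.0405) and 0.19 ± 0.046 with mismatch (adjusted p = 0.00555), and the call with match was lost under 12 of 27 alternatives. RFC5 read 801, 762 and 802 with match, 975, 979.7 and 920.4 with mismatch and 777, 854 and 772 with dexamethasone. The match arrays thus overlapped the dexamethasone arrays, and the mismatch arrays lay above both. RFC5 was lower with match than with mismatch, at a difference of -0.28 ± 0.062, although the mean over its 3 probe sets put that difference at 0.0034. RFC2 rose with mismatch (0.30), and RFC3 passed neither test, at 0.033 and -0.046.

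The 4 subunits of polymerase alpha and primase, which act as 1 complex, did not move together with the polyamides. PRIM2, the large regulatory subunit of primase, read 29.1, 20.6 and 22.4 with match and 66.3, 66.8 and 76.6 with mismatch, against 139, 113 and 128 with dexamethasone. With mifepristone it read 124, 140.3 and 128, and in non-treated arrays 128, 148 and 102. Each match array lay below each mismatch array, and each mismatch array below the 9 others, with match signals close to the arrays' overall median. PRIM2 changed by -1.84 ± 0.14 on the log2(signal + 16) scale with match (limma adjusted p = 1.76e-09) and by -0.73 ± 0.14 with mismatch (adjusted p = 4.65e-04). It was lower with match than with mismatch, at -1.10 ± 0.14 (adjusted p = 9.79e-06), and this was the one direct difference among the named members that passed under all 27 alternatives. Because the match signals are low, the size depends on the amount added before the logarithm: the change with match was -2.36 when 1 was added and -1.11 when 64 was added. POLA1, the polymerase subunit that extends the primer, had 78.5, 96.5 and 119.6 with match and 144, 139 and 122 with mismatch, against 314, 296 and 291 with dexamethasone. Mifepristone arrays read 324, 291 and 302 and non-treated arrays 352, 306 and 315, so the order of the groups was that of PRIM2, with a narrow gap between the polyamides. POLA1 changed by -1.48 ± 0.11 with match (limma adjusted p = 2.71e-09) and by -1.07 ± 0.11 with mismatch (adjusted p = 6.91e-07). The difference between the polyamides, -0.41 ± 0.11, was lost without match replicate 1, without mismatch replicate 1 or 2, in the fit of the 6 arrays alone, on the signals as deposited and with spike-in scaling.

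Neither of the remaining subunits of that complex was called lower with match. PRIM1, the catalytic subunit of primase, read 629, 634 and 661 with match and 622, 515 and 546 with mismatch, against 453, 563 and 473 with dexamethasone, and rose by 0.37 ± 0.090 with match (limma adjusted p = 0.00348). POLA2, the accessory subunit of polymerase alpha, had 162, 254 and 269 with match, against 276, 296 and 258 with dexamethasone, with match replicate 1 far below the rest, and its change of -0.29 ± 0.13 did not pass the test. POLD1, the catalytic subunit of polymerase delta, rose by 0.25 ± 0.083 with match, while POLD3, POLE and POLE2 lay between -0.059 and 0.20 without passing. With mismatch no polymerase or primase gene rose, and POLA1 and PRIM2 were the 2 that fell. PRIM2 and POLA1 are each measured by 1 probe set, so no second probe set bears on their size.

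**Figure D2:**
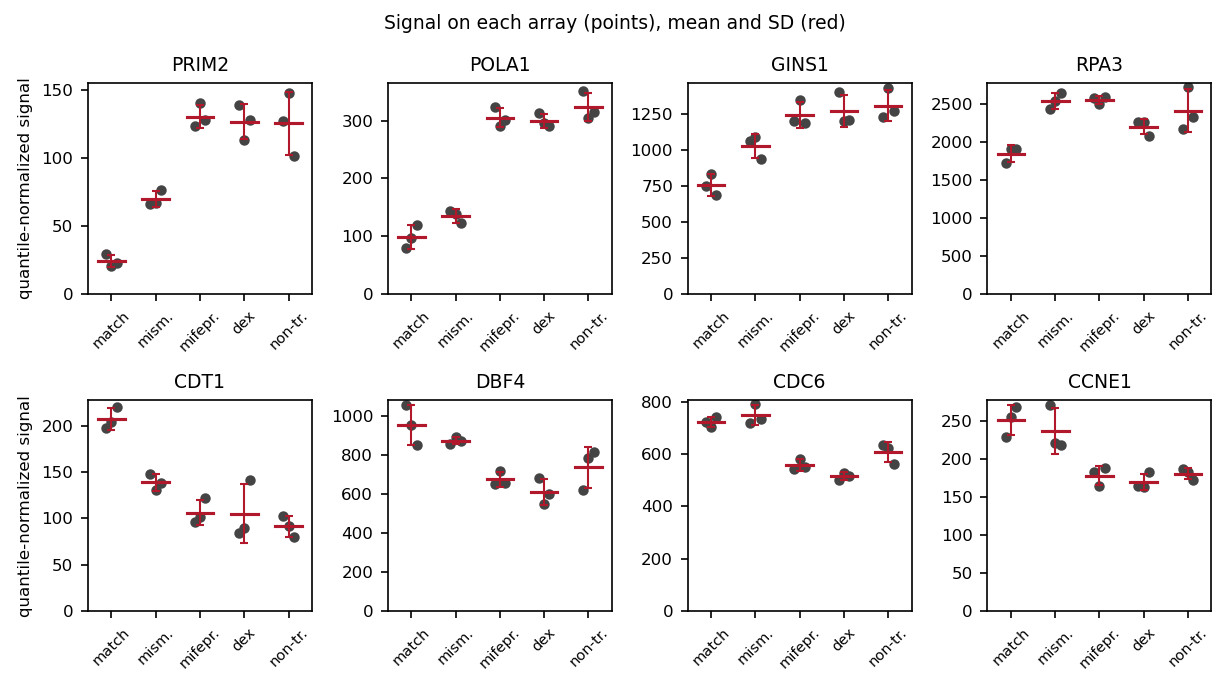
Quantile-normalized signal on a linear axis that starts at 0, for 8 members, with 1 point per array and the mean and SD of each group of 3 in red; groups run from match, mismatch and mifepristone (all with dexamethasone) to dexamethasone and non-treated. PRIM2, POLA1 and GINS1 step up from match over mismatch to the other arrays, RPA3 is lowest with match, and CDT1, DBF4, CDC6 and CCNE1 are highest with the polyamides.

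RPA, the complex that coats single-stranded DNA, also changed by subunit. RPA1, its large subunit, read 977, 969 and 971 with match and 1084, 1083 and 1028 with mismatch, against 1279, 1321 and 1248 with dexamethasone, and fell by 0.39 with match (limma adjusted p = 5.40e-06) and by 0.26 with mismatch (adjusted p = 7.85e-04). These groups did not overlap, and within each the arrays lay close together. RPA3, the small subunit, read 1720.2, 1903 and 1910.4 with match and 2432, 2538 and 2644 with mismatch, against 2256, 2259 and 2082 with dexamethasone, with no overlap among these groups. It fell by 0.25 with match (adjusted p = 0.00743), rose by 0.21 with mismatch (adjusted p = 0.0354) and differed between them by -0.46 ± 0.069 (adjusted p = 8.36e-05). The rise with mismatch was lost without any 1 of the dexamethasone arrays. RPA2, the subunit phosphorylated in the cell cycle, had 438, 413 and 404 with match, against 343, 327 and 319 with dexamethasone, and rose by 0.33 ± 0.078. Of the enzymes that finish the lagging strand, the flap nuclease FEN1 rose by 0.33 ± 0.11 with match, a call lost under 9 of 27 alternatives, and its second probe set gave 0.12 and did not pass (adjusted p = 0.244). DNA ligase 1 (LIG1) was at 0.0039 with a 95% interval of -0.25 to 0.26.

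Of the 4 genes of nucleotide supply, RRM2 rose and TYMS and RRM1 fell with match, the call of RRM1 being lost under 19 of 27 alternatives. With mismatch none passed limma's test, 2 having an unadjusted p under 0.05, beside 6489 of the 16358 genes. TYMS, which makes the thymidine nucleotide, read 2905, 2929.7 and 3077 with match and 3639.9, 3639.9 and 3499 with mismatch, against 3398, 3513 and 3463 with dexamethasone. All match arrays were the lowest, and TYMS fell by 0.22 with match (limma adjusted p = 8.49e-04) and was lower with match than with mismatch, at a difference of -0.27 ± 0.046. A bright second TYMS probe set gave -0.38 with match (adjusted p = 1.73e-04), whereas a dim one, with a mean signal of 10.1, rose by 0.80 (adjusted p = 0.0172). Thymidine kinase (TK1) read 1096, 1047 and 1053 with match and 1462, 1267 and 1494 with mismatch, against 1224, 1274 and 1152 with dexamethasone, so every match array lay below the dexamethasone arrays, while the mismatch arrays overlapped them at their lower end. By the probe set that represents it, TK1 differed between the polyamides by -0.39 ± 0.084 but passed neither test against dexamethasone (-0.19 ± 0.084 and 0.20 ± 0.084). Its second, dimmer probe set passed all of them, at -0.29 with match (adjusted p = 0.00653), 0.26 with mismatch (adjusted p = 0.0184) and -0.55 between the polyamides (adjusted p = 4.26e-05). Of the ribonucleotide reductase subunits, RRM2 rose by 0.29 ± 0.061 with match and RRM1 was at -0.14 ± 0.053 (adjusted p = 0.0448), and a second RRM2 probe set of similar brightness gave 0.10 and did not pass (adjusted p = 0.211). By the probe set that represents it, RRM2 read 3422, 3248 and 3263 with match, against 2538, 2803 and 2795 with dexamethasone.

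Among the 5 regulators of the G1/S step, 3 cyclins rose with match and none of the 5 fell with either polyamide. Cyclin E1 (CCNE1), which activates CDK2, read 230.0, 256 and 269 with match and 272, 222 and 218 with mismatch, against 165, 164 and 183 with dexamethasone. Neither polyamide group overlapped dexamethasone, and CCNE1 rose by 0.52 ± 0.10 and 0.44 ± 0.10, with a difference of 0.084 between the polyamides (95% interval -0.13 to 0.30). Cyclin D1 (CCND1), the partner of CDK4 and CDK6, read 1183, 1478 and 1409 with match and 1466, 1549.7 and 1532 with mismatch, against 1146, 1001 and 1051 with dexamethasone, and rose by 0.34 ± 0.085 and 0.50 ± 0.085. A second, dimmer CCND1 probe set passed neither test against dexamethasone, at 0.37 and -0.14. It was called higher with match than with mismatch (0.51, limma adjusted p = 0.0428), whereas the first was at -0.16 and did not pass. Cyclin E2 (CCNE2) had 169, 177 and 155 with match and 102, 136 and 127 with mismatch, against 104, 146 and 125 with dexamethasone. CCNE2 rose by 0.38 ± 0.13 with match and was higher with match than with mismatch by 0.42 ± 0.13 (limma adjusted p = 0.0291), but each of these calls was lost under 8 of 27 alternatives. The phosphatase CDC25A, which activates CDK2, and the transcription factor E2F1 did not pass, at 0.23 ± 0.18 and 0.19 ± 0.21 with match. The 3 match arrays of E2F1 read 90.5, 253 and 153, a spread wider than the distance between groups. A second E2F1 probe set was called higher with mismatch (0.52, adjusted p = 0.00105).

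**Figure D3:**
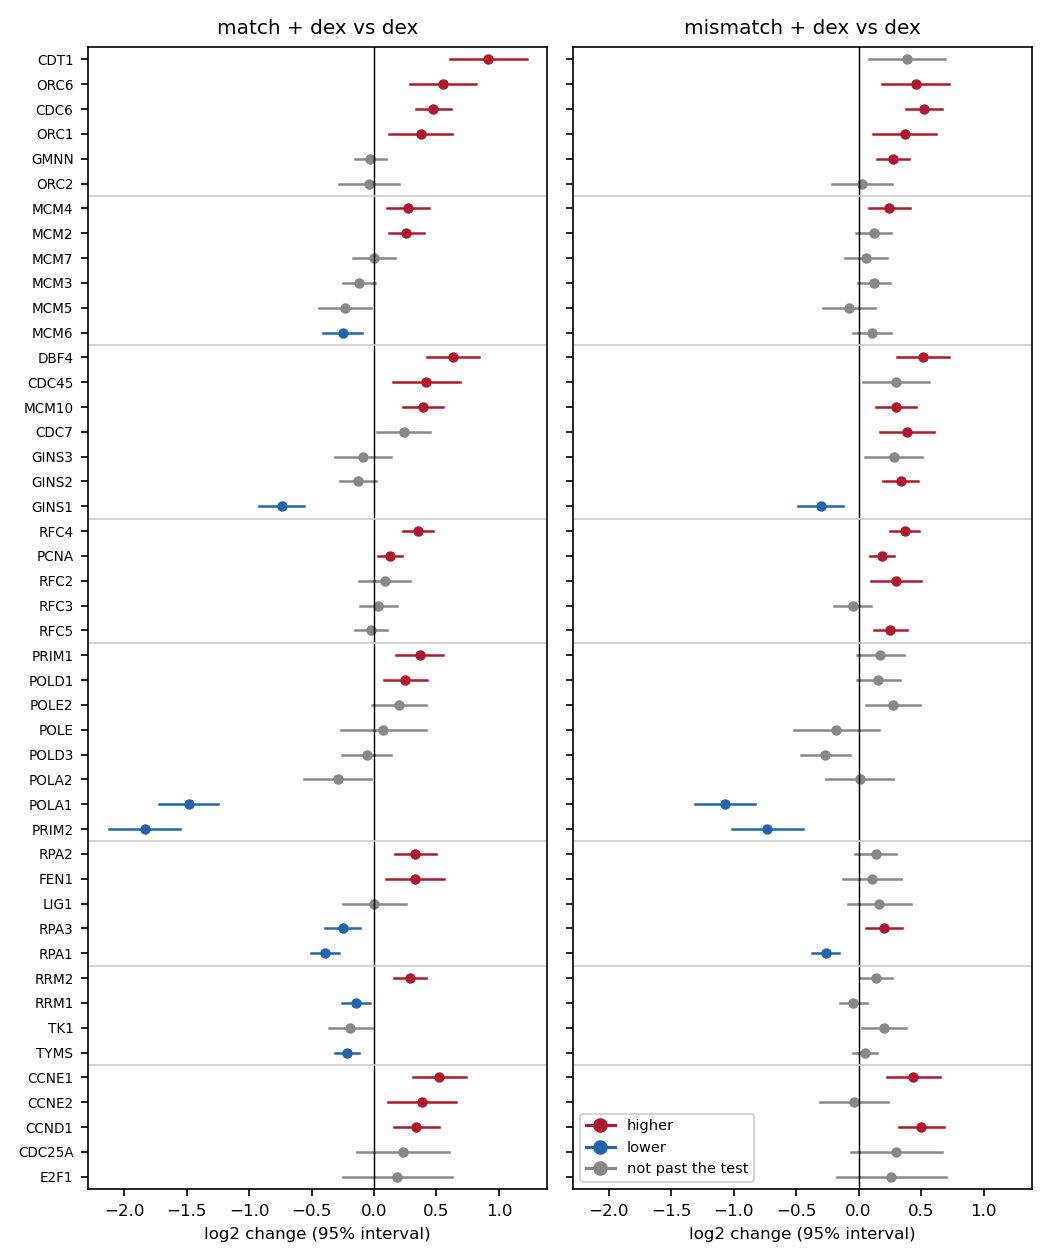
Log2 change of each member, by role, with its 95% interval from the limma fit, for match plus dexamethasone (left) and mismatch plus dexamethasone (right), each against the same dexamethasone arrays; red and blue mark members that passed the test. With match 19 members are red and 8 blue, with mismatch 16 are red and 4 blue, and POLA1 and PRIM2 stand far to the left of the rest in both.

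The direct comparison of the polyamides, 1 pair at matched times, puts a bound on what was not called. For 32 members it did not pass the test, with differences between -0.30 for POLA2 and 0.25 for POLE. As the sorted plot of these differences shows, the 95% interval was narrow for RFC4 (-0.13 to 0.10) and wider for DBF4 (-0.088 to 0.32) and ORC6 (-0.17 to 0.36). RPA1 differed by -0.13 ± 0.052 with an interval of -0.24 to -0.019 (limma adjusted p = 0.106). A difference that misses the threshold does not show that the compounds act alike on that gene.

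**Figure D4:**
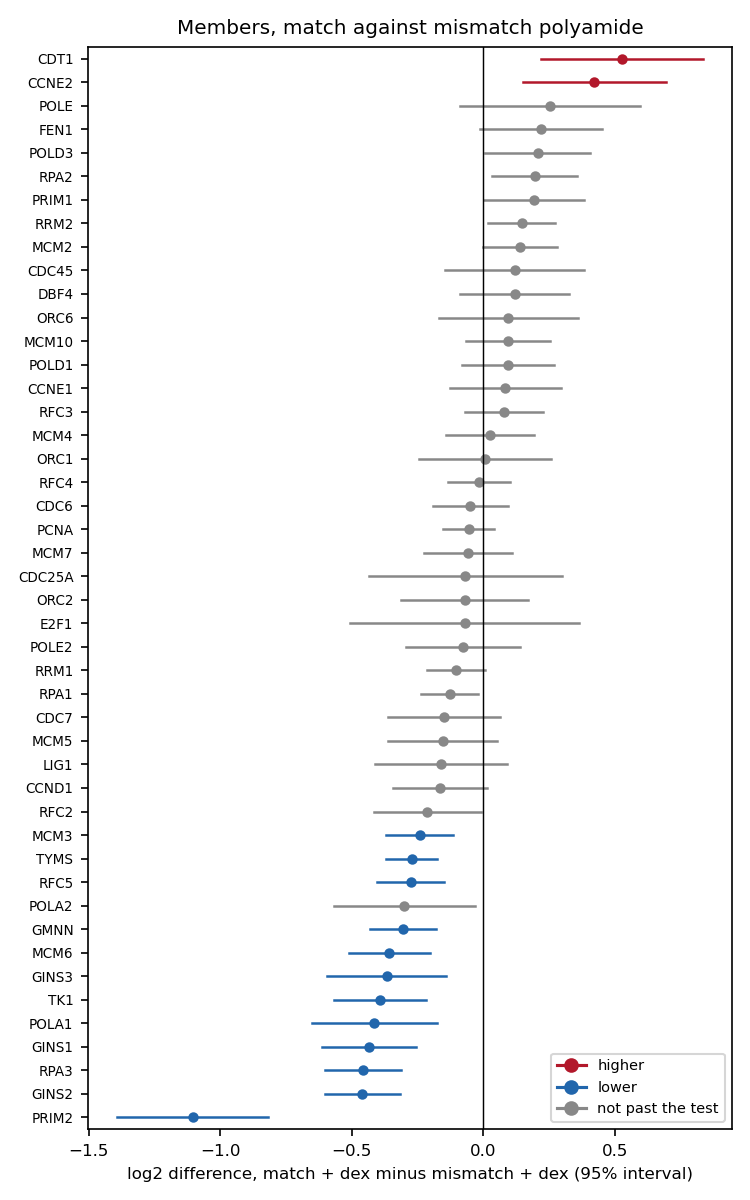
Log2 difference between match plus dexamethasone and mismatch plus dexamethasone for each of the 46 members, sorted, with its 95% interval; red marks members higher and blue members lower with match at an adjusted p under 0.05. CDT1 (0.53) and CCNE2 (0.42) stand at the top and PRIM2 (-1.10) alone at the bottom.

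Mifepristone plus dexamethasone against dexamethasone alone changed none of the 46 members by limma's test, where 1.61% of all probe sets were called higher and 1.94% lower. By 1 probe set per gene, 2.53% of genes were higher and 2.76% lower. At an unadjusted limma p under 0.05, 8 of 46 members passed, beside 2558 of the 16358 genes taken as 1 probe set each. Log2 changes lay between -0.22 and 0.28 with a median of 0.043, beside 0.016 over all genes. The clamp loader gene RFC5 came nearest to the threshold, with 969, 900.3 and 917 with mifepristone against 777, 854 and 772 with dexamethasone and a change of 0.21 ± 0.062 (limma adjusted p = 0.0697). Outside the probe set that represents each gene, 1 further probe set of CDT1 (0.47, adjusted p = 0.0198) and 1 of RFC3 (0.41, adjusted p = 0.0496) were called higher with mifepristone. PRIM2 and POLA1, the genes that fell furthest with the polyamides, changed by 0.042 ± 0.14 and 0.023 ± 0.11. The mifepristone arrays were the brightest as deposited, with a median signal of 19.8 to 24.5 against 14.8 to 18.1 for dexamethasone, and without normalization the median of all genes shifted by 0.38. On that scale 28 members were called higher, beside 19.9% of all probe sets, and 37 after spike-in scaling, beside 31.7%, where all genes shifted by 0.44 and the members by 0.54 in the median.

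Dexamethasone alone against non-treated cells lowered 3 members, all subunits of the clamp loader, and raised none, where 2.56% of all probe sets were called higher and 2.29% lower. That is 6.52% of members lower, beside 3.20% of genes higher and 3.60% lower by 1 probe set per gene. RFC3 read 664, 694 and 574 with dexamethasone, against 806, 813 and 780.5 in non-treated cells, and fell by 0.31 (limma adjusted p = 0.0104). RFC5 read 777, 854 and 772 with dexamethasone, against 974, 979 and 929.8 in non-treated cells, and fell by 0.26 (adjusted p = 0.0136). RFC4 read 794, 783 and 779 with dexamethasone, against 942, 932 and 894 in non-treated cells, and fell by 0.23 (adjusted p = 0.0182). In each of the 3 genes every dexamethasone array lay below every non-treated array. RFC2, the remaining subunit on the list, was at 0.10 ± 0.10. A second RFC3 probe set also fell, by 0.43 (adjusted p = 0.0245), while the other RFC5 probe sets gave -0.046 and -0.29 and did not pass. Other probe sets of CDT1 (-0.53, adjusted p = 0.00578) and CCND1 (0.60, adjusted p = 0.0431) were called with dexamethasone, while those that represent these genes were not. Without non-treated replicate 2 or dexamethasone replicate 3, and on the signals as deposited, with median centring, with spike-in scaling or without a variance trend, none of the 46 was called. The median change of members was -0.11, beside -0.036 over all genes. At an unadjusted limma p under 0.05, 8 members passed, beside 2947 of the 16358 genes.

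PRIM2 and POLA1 are also the longest of the 46 genes, spanning 425 kb (GRCh38.p14, chr6:57221540-57646850) and 303 kb (chrX:24693918-24996986) in the RefSeq annotation, and RFC3, at 159 kb, is the one other member over 100 kb. Among all 616 tested genes over 300 kb the median log2 change was -0.50 with match and -0.40 with mismatch, and 38.5% of them were below -1 with match. Among 4616 genes of 10 to 30 kb, where 20 members lie, the medians were 0.15 and 0.15, and 1.13% were below -1 with match. The 4 members under 10 kb had a median of 0.44 with match, the 20 of 10 to 30 kb 0.21 and the 19 of 30 to 100 kb 0.0039. Over the 46 members the log2 change with match correlated with log10 span at Pearson r = -0.64 (Spearman rho = -0.40), and at r = -0.38 (rho = -0.32) without the 2 longest. With mismatch r was -0.68 over all members and -0.48 without the 2 longest, and over 16336 genes r was -0.35 with match and -0.32 with mismatch. These are correlations across genes that share arrays, given as a description, and genes are not independent replicates. The subunits PRIM1 (20.7 kb) and POLA2 (44.0 kb) of the same complex are short by comparison, and neither was called lower. GINS1, at 40.9 kb, lies in the bin whose median over all genes was 0.035.

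**Figure D5:**
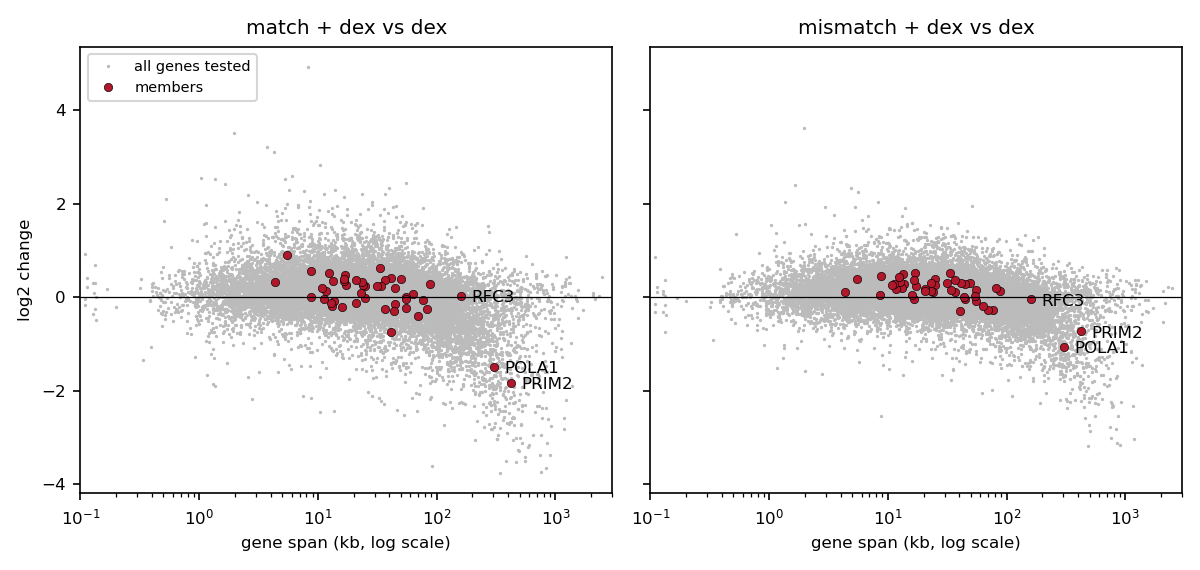
Log2 change against gene span (kb, log axis) for match plus dexamethasone (left) and mismatch plus dexamethasone (right), each against dexamethasone; grey points are all tested genes with a span and red points the 46 members. POLA1 and PRIM2, beyond 300 kb, lie at -1.48 and -1.84 with match, while RFC3 at 159 kb lies near 0.

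Of 21 other replisome genes, 8 rose and 6 fell with match (median 0.22), and 10 rose and 0 fell with mismatch (median 0.26). That is 38.1% higher and 28.6% lower with match beside 21.5% and 17.4% of all genes, and 47.6% higher and 0% lower with mismatch beside 17.9% and 11.8% of all genes. The origin recognition subunits ORC3, ORC4 and ORC5 averaged 261, 409 and 342 with match, against 424, 656 and 520.5 with dexamethasone, and fell by 0.68, 0.66 and 0.59, whereas ORC6 and ORC1 rose. With mismatch these 3 changed by 0.016, -0.16 and -0.023 and did not pass. Claspin (CLSPN) and TIPIN, which protect the fork and relay checkpoint signals, rose by 0.83 and 0.82 with match and by 0.77 and 0.52 with mismatch, all at limma adjusted p under 0.05. GINS4, the fourth GINS subunit, changed by 0.51 with match (adjusted p = 0.0766) and rose by 0.94 with mismatch (adjusted p = 0.00252). In the direct comparison TIPIN (0.31) was higher with match, and ORC3 (-0.69), ORC5 (-0.56), ORC4 (-0.50), POLE4 (-0.36) and TOPBP1 (-0.25) were lower, or 4.76% higher and 23.8% lower beside 9.43% and 13.5% of all genes. Mifepristone changed none of the 21 by limma's test (5 at an unadjusted p under 0.05, beside 2558 of the 16358 genes), where 2.53% of all genes were higher and 2.76% lower. Dexamethasone against non-treated cells lowered TOPBP1, which helps fire origins, by 0.25, or 4.76% of the list beside 3.60% of all genes.

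Among 29 other E2F and G1/S genes, 10 rose and 7 fell with match (median 0.031), and 10 rose and 4 fell with mismatch (median 0.16). That is 34.5% higher and 24.1% lower with match beside 21.5% and 17.4% of all genes, and 34.5% higher and 13.8% lower with mismatch beside 17.9% and 11.8% of all genes. E2F7, a repressor of the E2F family, averaged 289 with match and 289 with mismatch, against 132 with dexamethasone, and rose by 1.05 and 1.05 (limma adjusted p = 1.22e-08 and 3.66e-08). RB1, the retinoblastoma protein that holds E2F in check, averaged 213 with match and 265 with mismatch, against 457 with dexamethasone, and fell by 1.04 and 0.75 (adjusted p = 6.13e-07 and 7.25e-05). CDK6 fell by 0.69 with match and by 0.72 with mismatch, and CDK2 by 0.50 and 0.32, while their cyclin partners CCND1 and CCNE1 rose. In the direct comparison 2 were higher and 8 lower with match, or 6.90% and 27.6%, beside 9.43% and 13.5% of all genes. Mifepristone against dexamethasone raised CDK6 (0.48), E2F8 (0.39) and CCND3 (0.30), or 10.3% of the list beside 2.53% of all genes. Dexamethasone against non-treated cells lowered CCND3 (-0.73), CDK6 (-0.59), E2F8 (-0.55) and DTL (-0.35), or 13.8% of the list beside 3.60% of all genes. These mifepristone and dexamethasone comparisons share the dexamethasone arrays.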

How the data were processed

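Biotin-labelled total RNA was hybridized to Affymetrix arrays, per the labels. The authors deposited linear intensity values, 1 for each probe set on each array, which MAS5 produced (per the submitters' processing notes); the sources used here name neither its version nor its scaling target. Arrays differed in scale, so quantile normalization came first and 16 was added before taking log2. Of 54675 probe sets, 39744 were tested after 62 controls were left out, namely those above their array's 40th percentile on at least 3 of 15 arrays. The 5 group means were estimated in 1 fit over the 15 arrays (limma 3.58.1, R 4.3.3; trended variances, 10 residual and 9.36 prior degrees of freedom), and p-values were adjusted by Benjamini-Hochberg over all probe sets tested in each comparison, with calls at 0.05. The code was tested on simulated data.

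Probe sets were named from the platform's annotation, which gives 41097 of them 1 symbol, 1801 several and 11777 none. Each gene is represented by 1 probe set with its symbol alone, not of the _x_at kind where possible, and then the brightest. Members have 83 probe sets in all, 20 members have 1, and ORC6 is represented by an _x_at probe set. Of 18 other probe sets of members called with match, 7 were called the same way, 1 the opposite way and 10 not; with mismatch 6 of 15 were called the same way and none the opposite way. The members, the lists of other replisome subunits, other E2F and G1/S genes and mitosis genes, and the promoter motifs were chosen with earlier results of these data known. In each role, arrays are given for the 2 members with the largest change with match and the member with the largest change with mismatch and between polyamides, and for called members with dexamethasone and mifepristone; PRIM1, POLA2, E2F1 and genes of the other lists were named after their values were seen. Same-numbered arrays did not deviate together (correlations -0.084 to 0.12, 2 of 30 over 0.1), so replicate numbers were not used as pairs. Alternatives covered scaling, the added constant, the filter, the variance trend, the arrays fitted, a replicate block, the probe sets averaged and each array left out, 27 in all. Spans and promoters come from RefSeq on GRCh38.p14 and serve as lengths and sequences.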

Additional observations from a re-analysis of the deposited data

Results flagged for a closer look

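For 10 members the estimated changes against dexamethasone had opposite signs with the 2 polyamides, and the direct difference between match and mismatch passed limma's test. How many of all genes meet this rule was not counted, so the 10 cannot be compared with genes at large. By 1 probe set per gene, 9.43% of all genes were higher and 13.5% lower with match than with mismatch. Among the 10 members, the largest difference was that of GINS2, a subunit of the replicative helicase, at -0.46 ± 0.068 (SE): GINS2 changed by -0.13 with match and by 0.34 with mismatch. RPA3, the small subunit of the single-strand binding complex, followed at -0.46, and it is the one member called lower with match (-0.25) and called higher with mismatch (0.21). The cyclin CCNE2 is the one with the higher level under match, at 0.42: CCNE2 changed by 0.38 with match and by -0.037 with mismatch. For thymidine kinase TK1 the difference was -0.39, and neither of its changes, -0.19 with match and 0.20 with mismatch, passed the test against dexamethasone, although a second TK1 probe set was called lower with match (-0.29) and higher with mismatch (0.26).

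GINS3 and MCM6, further parts of the helicase, differed by -0.37 and -0.36, and MCM3 by -0.24. Geminin (GMNN), the licensing inhibitor, differed by -0.31, the clamp loader subunit RFC5 by -0.28 and thymidylate synthase TYMS by -0.27. Against dexamethasone, the changes of these 6 with match lay between -0.25 for MCM6 and -0.021 for RFC5, and those with mismatch between 0.055 for TYMS and 0.28 for GINS3. When all probe sets of a gene were averaged, the differences were -0.027 for GINS2, whose other probe sets are dim, and 0.0034 for RFC5. With spike-in scaling none of the 10 passed.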

How the results depend on the processing

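Of 27 members called with match against dexamethasone, 8 were called on the signals as deposited and 16 after median centring, and leaving out single arrays gave 20 to 28. Of 20 with mismatch, 7 were called with spike-in scaling and 13 without a variance trend, and 15 to 22 without single arrays. Between the polyamides, against 14, deposited signals gave 8, spike-in scaling 2 and single arrays left out 11 to 14. The shares of all probe sets called on deposited signals, after median centring and with spike-in scaling stand with these polyamide comparisons above. For mifepristone, against 0, deposited signals gave 28, median centring 2, spike-in scaling 37, the 60th percentile filter 1 (RFC5), and single arrays left out 0 to 1. For dexamethasone against non-treated, 3 calls became 0 on deposited signals, with median centring, with spike-in scaling and without a variance trend, and 0 to 4 without single arrays. With a replicate block the counts were 26 for match, 21 for mismatch, 14 between the polyamides, 0 for mifepristone and 3 for dexamethasone against non-treated; same-numbered arrays did not deviate together.

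Signs turned for TYMS with match (0.051 with spike-in scaling, 0.067 with all probe sets averaged), for GINS2 with mismatch (-0.025) and RFC5 between polyamides (0.0034) with all probe sets averaged, and for MCM2 (0.46), GINS1 (0.46) and TK1 (0.47) with mifepristone under spike-in scaling. No called member turned into a call in the opposite direction. With match, CDT1, ORC6, CDC6, GINS1, DBF4, PRIM2, POLA1 and CCNE1 passed under all 27 alternatives, and with mismatch CDC6, DBF4, RFC4, PRIM2 and POLA1. Spike-in scaling moved the median of all genes to 0.26 with match, 0.13 with mismatch and 0.13 between them, against 0.054, 0.071 and -0.020 with quantile normalization. The cause of the lost calls was not tested, except that fewer arrays were fitted where arrays were left out. With 3 arrays per group, small changes of dim genes cannot be resolved.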

Other observations

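Genes of mitosis, the phase that follows replication, are given for comparison. Of 15 such genes, 7 rose and 2 fell with match against dexamethasone (median 0.18), and 4 rose and 0 fell with mismatch (median 0.090). That is 46.7% higher and 13.3% lower with match beside 21.5% and 17.4% of all genes, and 26.7% higher and 0% lower with mismatch beside 17.9% and 11.8% of all genes. Cyclin B2 (CCNB2), which activates CDK1, averaged 2369 with match and 2094 with mismatch, against 1442 with dexamethasone, and rose by 0.71 and 0.53 (limma adjusted p = 9.08e-08 and 9.05e-06). CDC20, which activates the ubiquitin ligase that ends mitosis, rose by 0.59 and 0.41. MKI67, the gene of the proliferation marker Ki-67, averaged 759 with match and 459 with mismatch, against 499.9 with dexamethasone, and was higher with match than with mismatch by 0.70 (adjusted p = 4.96e-05). BUB1B and KIF11, which serve the spindle checkpoint and the spindle, fell by 0.36 and 0.21 with match. Between the polyamides MKI67 and AURKA (0.18) were higher and BUB1B (-0.25) and KIF11 (-0.23) lower with match. Mifepristone changed none by limma's test (3 at an unadjusted p under 0.05, beside 2558 of the 16358 genes), where 2.53% of all genes were higher and 2.76% lower. The kinase AURKA fell by 0.25 with dexamethasone against non-treated cells, or 6.67% of the list beside 3.60% of all genes.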
